A study of Danio rerio with 8 samples.

Results

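The 10 genes described here make, move and sense bile acids and sterols in zebrafish liver. They were chosen by symbol from a list drawn up with earlier results of these data known, and all 10 were matched among the 32520 genes listed in each library. For cyp8b1.1 an older symbol was used. For abcb11b, abca1a and nr0b2a the copy was inferred from a symbol without its letter, the other copy being named. RNA was sequenced from the whole livers of 4 females on the Whole Egg diet and 4 females on the Control diet. The Control diet draws its protein from several sources, and in the Whole Egg diet egg product takes the place of a large share of that protein. The paper also lists more lipid and energy and less wheat starch in the Whole Egg diet. These differences were not separated from the protein source. All 8 fish were 36 wk old, had received their diet since day 21, and gave 1 library each. Fish are named by diet and by the number in their labels, Whole Egg-1 to Whole Egg-4 and Control-1 to Control-4, and the labels do not say what the number stands for.

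Hepatocytes turn cholesterol into bile salts, pump them into bile, and take up those that return from the intestine. In mammals, bile acids bind the receptor FXR, which raises the repressor SHP and the bile salt export pump, and SHP lowers the enzyme that starts synthesis. Also in mammals, oxysterols bind the receptor LXR, which raises the transporters that move cholesterol out of cells and into bile. Whole egg is a source of dietary cholesterol, and the comparison shows the liver levels of genes on both arms after long feeding of either diet.

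The libraries held 16916307 to 35871236 counts on genes. Levels are given as CPM, counts per 1000000 after edgeR's TMM scaling, with the SD over the 4 fish of a diet, and they are compared between fish but not between genes, since CPM are not per length. The TMM factors ran from 0.682 in Control-4 to 1.716 in Whole Egg-2, and the order of the fish can depend on them. Hepatocyte markers were abundant in every library (fabp10a, the liver fatty acid binding protein, had 650.3 to 1723 CPM). The summed level of the 11 markers, which include the vitellogenin gene vtg2, was lowest in Whole Egg-2. That sum ran from 56062 to 127684 CPM in Whole Egg livers and from 101026 to 148447 CPM in Control livers. For fabp10a alone the lowest fish was Control-1, with 650.3 CPM, against 755 CPM in Whole Egg-2. Whole Egg-2 stood apart by ovary markers, while Control-2 was highest by a smaller margin in intestine and exocrine pancreas markers. Ovary markers summed to 525 CPM in Whole Egg-2 and to 3.49 to 59.6 CPM in the other fish, and intestine markers summed to 213 CPM in Control-2 and to 49.6 to 145 CPM in the others. Exocrine pancreas markers summed to 149 to 1394 CPM in Whole Egg livers and to 339 to 1866 CPM in Control livers, with the highest in Control-2. Counts over the members and the lists are given for all fish, without Whole Egg-2, and without Whole Egg-2 and Control-2. The part that other tissue plays in these counts was not tested. In whole liver, fewer cells of a type and less RNA per cell cannot be told apart.

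Of the 10 genes, 9 had enough counts to be tested, and none differed between the diets beyond the spread of the fish. At an adjusted p under 0.1 there were 0 members in edgeR's quasi-likelihood test, as over all 13379 genes tested (0%), and the members' adjusted p ran from 0.810 to 0.992 in that test. At an unadjusted p under 0.05 there were also 0 members, where 3.90% of all genes passed, and DESeq2 gave 0 members at either threshold. There were 0 members whose Whole Egg and Control fish did not overlap, against 2.14% of all genes. The fitted log2 fold change of Whole Egg over Control was below 0 in 7 members and above 0 in 2, with a median of −0.31. Over all genes tested the median was 0.043, and 45.8% were below 0. The TMM factors were 0.928 to 1.716 in Whole Egg and 0.682 to 1.161 in Control fish, so these signs can depend on the scaling. RLE and upper quartile scaling also gave 7 members below 0, and a fit on library totals alone was not run. Leaving out Whole Egg-2 gave 6 of 9 members below 0 and a median of −0.13, and leaving out Whole Egg-2 and Control-2 gave 7 of 9 and a median of −0.13.

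**Figure D1:**
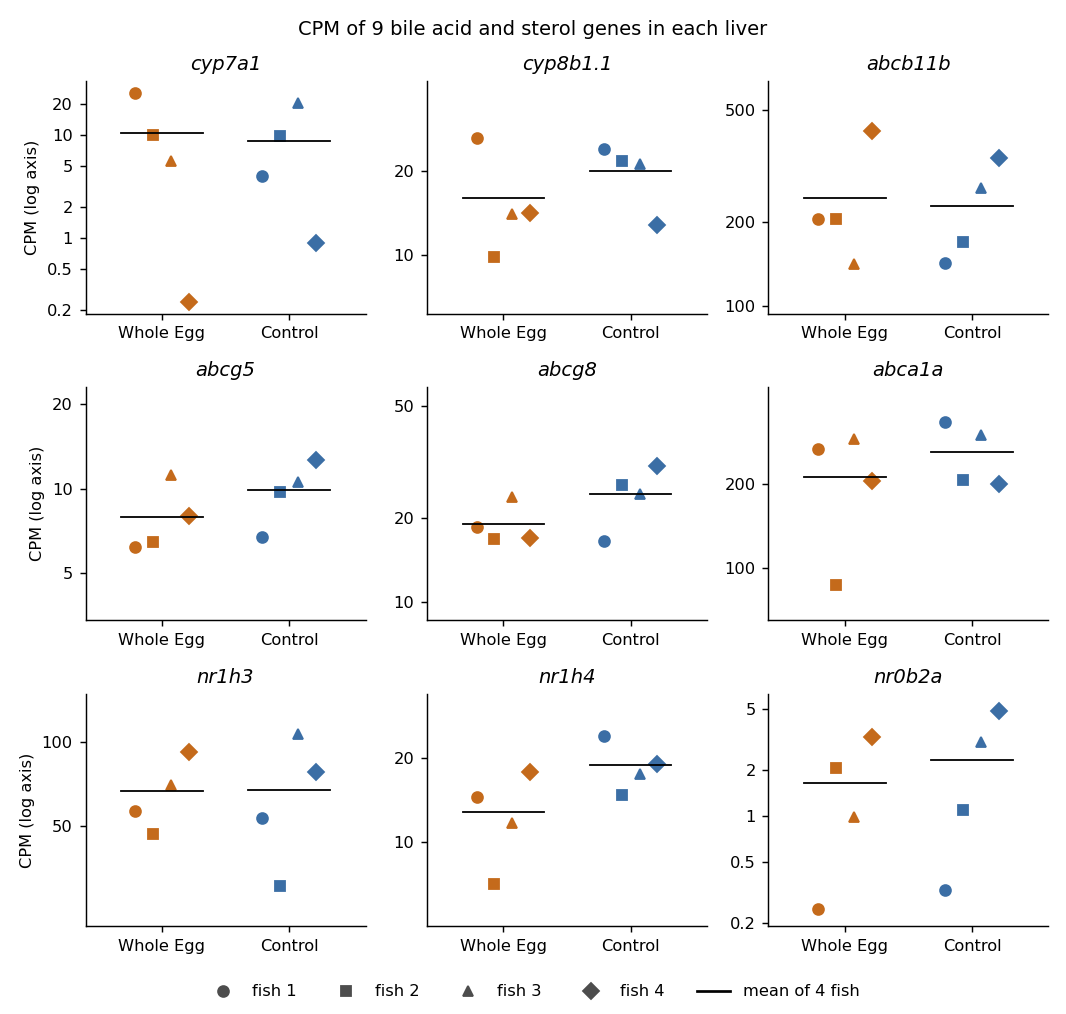
Normalized level (CPM, log axis) of the 9 tested genes in each liver, 4 Whole Egg fish left of 4 Control fish; the marker shape gives the fish number and the line the mean of a diet. Whole Egg and Control fish overlap in every panel, and cyp7a1 and nr0b2a span the widest range.

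Synthesis begins with cyp7a1 (ENSDARG00000069018), whose enzyme hydroxylates cholesterol and sets the rate of the classic pathway in mammals. It had 25.8, 9.95, 5.63 and 0.241 CPM in Whole Egg-1 to Whole Egg-4, against 4.01, 9.88, 20.7 and 0.894 CPM in Control-1 to Control-4. The number 4 fish were lowest on both diets, on 4 counts in Whole Egg-4 and 13 in Control-4, while the highest fish was Whole Egg-1 on one diet and Control-3 on the other. The means were 10.4 ± 11.01 CPM in Whole Egg livers and 8.88 ± 8.74 CPM in Control livers (SD, n = 4 each), so each SD was about as large as its mean. The fit gave a log2 fold change of 0.22 (SE 1.09, adjusted p = 0.966 in edgeR), with a 95% interval of −2.23 to 2.67. In folds that interval reaches from 0.213 to 6.38, so these 8 fish cannot tell a several-fold difference of cyp7a1 in either direction from none. Its sign turned when Whole Egg-1 was left out (−0.76), and likewise without Control-1 (−0.021) or Control-4 (−0.15), and it reached 1.07 without Control-3.

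The second enzyme, cyp8b1.1 (ENSDARG00000053068), belongs to the sterol hydroxylase family that in mammals decides the balance between cholic acid and other bile acids. Its levels were 26.1, 9.87, 13.99 and 14.2 CPM in Whole Egg-1 to Whole Egg-4, against 24.0, 21.6, 21.1 and 12.8 CPM in Control-1 to Control-4. Control-1, Control-2 and Control-3 lay close together and Whole Egg-1 lay above them, whereas the other Whole Egg fish and Control-4 were lower. The mean was 16.0 ± 7.01 CPM in Whole Egg livers and 19.9 ± 4.87 CPM in Control livers (SD, n = 4 each). Fitted over all fish, its log2 fold change was −0.31 (SE 0.33, adjusted p = 0.849 in edgeR), with a 95% interval of −1.06 to 0.43. Leaving out Whole Egg-1 moved it to −0.66, with an unadjusted p of 0.0450 and an edgeR adjusted p of 0.488. In that setting 1374 of 13814 genes passed an unadjusted p of 0.05. Leaving out Whole Egg-2 moved the cyp8b1.1 value to −0.13. Copies named cyp8b1.2 and cyp8b1.3 stand on either side of it in a later assembly (GRCz12tu), reads that fit several places were not counted, and its level is uncertain for that reason.

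Set against each other within a fish, the enzymes showed no fixed proportion. The log2 ratio of cyp8b1.1 to cyp7a1 was 0.016, −0.013, 1.31 and 5.88 in Whole Egg-1 to Whole Egg-4, against 2.58, 1.13, 0.026 and 3.84 in Control-1 to Control-4. Counts of cyp8b1.1 thus ran from 0.991 to 58.8 times those of cyp7a1, highest in the number 4 fish of both diets, and over the 8 fish cyp7a1 covered 107-fold and cyp8b1.1 covered 2.65-fold. Whole Egg minus Control was −0.094, within the spread of the fish (two-sided exact permutation test, p = 0.943, adjusted over 2 ratios 0.943, smallest possible p 0.0286). The levels of both genes across the 8 fish gave r = 0.454 (exact permutation p = 0.271, adjusted over 8 pairs 0.542) and rho = 0.333 (exact permutation p = 0.428, adjusted 0.571). That r was 0.262 without Whole Egg-4 and Control-4, the fish farthest from the median of cyp7a1, and 0.750 without Whole Egg-2.

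For export, abcb11b (ENSDARG00000070078) encodes the canalicular bile salt export pump. It had 205, 204, 142 and 421 CPM in Whole Egg-1 to Whole Egg-4, against 143, 169, 264 and 338 CPM in Control-1 to Control-4. Both number 4 fish, which had the least cyp7a1, had the most abcb11b of their diet. The mean was 243 ± 122 CPM in Whole Egg livers and 228 ± 89.4 CPM in Control livers (SD, n = 4 each). Whole Egg over Control gave a log2 fold change of 0.089 (SE 0.40, adjusted p = 0.961 in edgeR), with a 95% interval of −0.81 to 0.99. Leaving out 1 fish moved it between −0.32 (Whole Egg-4) and 0.34 (Control-4). The paralog abcb11a had 0.148 to 2.66 CPM in Whole Egg livers and 0.285 to 2.76 CPM in Control livers.

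Uptake from blood in mammals depends mainly on the carrier encoded by SLC10A1, and its zebrafish namesake slc10a1 (ENSDARG00000030588) was close to undetected. It had 0, 0, 0 and 1 counts in Whole Egg-1 to Whole Egg-4, against 0, 1, 2 and 0 counts in Control-1 to Control-4. No fish reached 3 counts, the limit that a count of 0 allows, which stands at 0.0878 to 0.206 CPM in these libraries for counting error only. It did not pass the filter on low counts, and no fold change or ratio to abcb11b is given. The organic anion transporter slco1d1, named after its values were seen, had 99.4 to 210 CPM in Whole Egg livers and 140 to 198 CPM in Control livers.

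Sterols leave the hepatocyte for bile through a dimer of Abcg5 and Abcg8, neither of which transports alone. The level of abcg5 (ENSDARG00000063078) was 6.20, 6.44, 11.2 and 8.02 CPM in Whole Egg-1 to Whole Egg-4, against 6.76, 9.74, 10.6 and 12.6 CPM in Control-1 to Control-4. In CPM, Whole Egg-3 was above all but 1 Control fish, and Control-1 lay among the lowest Whole Egg fish. The mean was 7.97 ± 2.31 CPM in Whole Egg livers and 9.93 ± 2.44 CPM in Control livers (SD, n = 4 each), a log2 fold change of −0.32 (SE 0.28, adjusted p = 0.831 in edgeR) with a 95% interval of −0.94 to 0.30.

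Its partner abcg8 (ENSDARG00000063059), the next gene to abcg5 in GRCz12tu, encodes the other subunit. It had 18.5, 16.8, 23.7 and 16.9 CPM in Whole Egg-1 to Whole Egg-4, against 16.5, 26.2, 24.3 and 30.5 CPM in Control-1 to Control-4. In CPM, Control-1 was the lowest of all 8 fish and the other Control fish were above every Whole Egg fish. Whole Egg-2 had 574 counts in a library of 20031071 and Control-4 had 444 in 21346815, so this order depends on the TMM factors. The mean was 19.0 ± 3.25 CPM in Whole Egg livers and 24.4 ± 5.88 CPM in Control livers (SD, n = 4 each). On the log2 scale the fold change was −0.36 (SE 0.24, adjusted p = 0.810 in edgeR), with a 95% interval of −0.90 to 0.18, or 0.535-fold to 1.14-fold. This was the narrowest interval among the 9 members. Leaving out any 1 fish kept abcg8 between −0.51 and −0.24 and abcg5 between −0.51 and −0.19.

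The proportion of the dimer's genes was also taken within each fish. Over the 8 fish abcg5 itself covered 2.04-fold and abcg8 covered 1.85-fold, so neither had much room to vary against the other. The log2 ratio of abcg5 to abcg8 was −1.58, −1.38, −1.08 and −1.08 in Whole Egg-1 to Whole Egg-4, against −1.29, −1.43, −1.20 and −1.27 in Control-1 to Control-4, so that abcg5 counts were 0.334 to 0.473 of abcg8 counts. Whole Egg minus Control was 0.015, smaller than the SD of 0.173 over the 8 fish (two-sided exact permutation test, p = 0.857, adjusted over 2 ratios 0.943). Over the 8 fish the genes correlated with r = 0.901 (exact permutation p = 0.00908, adjusted over 8 pairs 0.0726) and rho = 0.738 (exact permutation p = 0.0458, adjusted 0.230). That r stayed at 0.898 without Whole Egg-1 and Control-4, the fish farthest from the median of abcg5, and at 0.882 without Whole Egg-2. The highest r of the 8 pairs examined was this one, and it did not pass an adjusted p of 0.05. Genes picked as most similar among all those compared had a higher r, such as RAB5A with abcg5 (0.972) and SSTR2 with abcg8 (0.931).

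**Figure D2:**
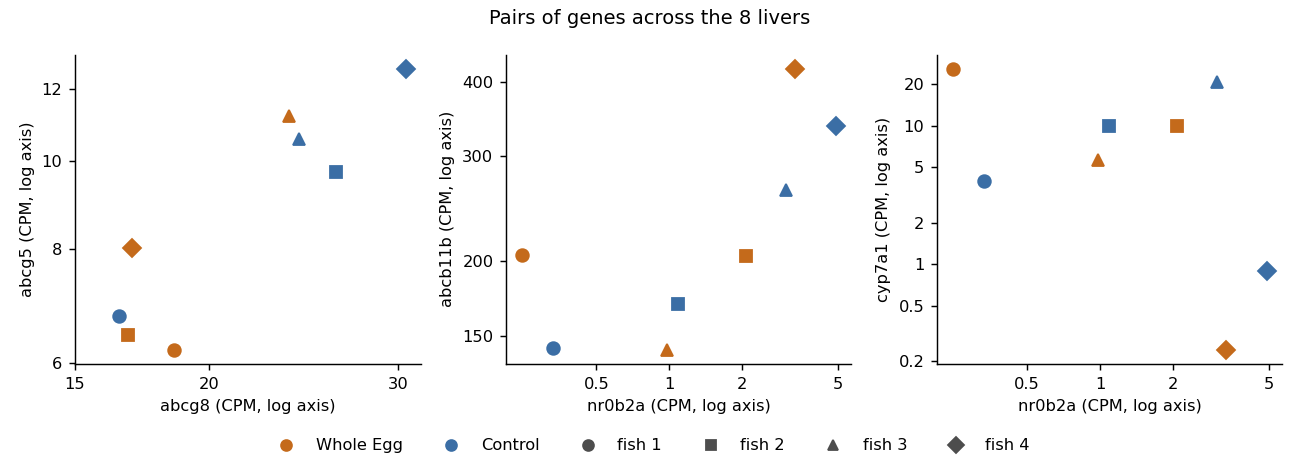
Levels of 3 pairs of genes in each liver (CPM, both axes log); color gives the diet, Whole Egg or Control, and shape the fish number. Over the 8 fish r was 0.901 for abcg5 with abcg8, 0.738 for abcb11b with nr0b2a and −0.51 for cyp7a1 with nr0b2a. Without the number 4 fish r was 0.529 for abcb11b and 0.169 for cyp7a1 with nr0b2a.

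Cholesterol is handed to apolipoprotein A-I by the transporter encoded by abca1a (ENSDARG00000074635), the first step in forming high-density lipoprotein. It had 266, 87.1, 290.3 and 205 CPM in Whole Egg-1 to Whole Egg-4, against 332, 207, 300.03 and 199.6 CPM in Control-1 to Control-4. Whole Egg-2, the library with the highest ovary and the lowest hepatocyte marker sum in CPM, was lowest, and the other 7 fish lay between 199.6 and 332 CPM. Its 2976 counts were above the 2903 of Control-4, in libraries of 20031071 and 21346815 counts. Its lowest place thus depends on the TMM factors. The mean was 212 ± 90.8 CPM in Whole Egg livers and 260 ± 66.6 CPM in Control livers (SD, n = 4 each). The fit gave a log2 fold change of −0.29 (SE 0.38, adjusted p = 0.873 in edgeR) with a 95% interval of −1.14 to 0.56, and it was −0.026 without Whole Egg-2. The other copy, abca1b, had 1.59 to 7.72 CPM in Whole Egg livers and 1.26 to 4.19 CPM in Control livers.

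Among the sensors, nr1h3 (ENSDARG00000098439) encodes the zebrafish LXR, the oxysterol receptor that in mammals raises the cholesterol transporters. It had 56.7, 46.7, 70.3 and 92.03 CPM in Whole Egg-1 to Whole Egg-4, against 53.3, 30.5, 107 and 78.03 CPM in Control-1 to Control-4. All Whole Egg fish lay within the range of the Control fish. The mean was 66.4 ± 19.6 CPM in Whole Egg livers and 67.1 ± 32.8 CPM in Control livers (SD, n = 4 each). Fitted over all fish, its log2 fold change was −0.016 (SE 0.39, adjusted p = 0.992 in edgeR), with a 95% interval of −0.89 to 0.86. Its sign turned when Whole Egg-1, Whole Egg-2, Control-3 or Control-4 was left out, within −0.25 to 0.30 over all 8 omissions.

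The bile acid receptor FXR is encoded by nr1h4 (ENSDARG00000057741), the member with the lowest fitted fold change. It had 14.5, 7.08, 11.7 and 17.8 CPM in Whole Egg-1 to Whole Egg-4, against 23.9, 14.7, 17.4 and 19.0 CPM in Control-1 to Control-4. In CPM, Whole Egg-1, Whole Egg-2 and Whole Egg-3 were below every Control fish, and Whole Egg-4 lay among the Control fish. Control-4 had 276 counts in a library of 21346815. Whole Egg-1 had 294 in 21934962 and Whole Egg-3 had 287 in 20800472, so this order depends on the TMM factors. The mean was 12.8 ± 4.55 CPM in Whole Egg livers and 18.8 ± 3.85 CPM in Control livers (SD, n = 4 each). Whole Egg over Control gave a log2 fold change of −0.56 (SE 0.30, adjusted p = 0.810 in edgeR), with a 95% interval of −1.23 to 0.12 and an unadjusted p of 0.0959, so nr1h4 was not called. Without Whole Egg-2, which had the highest TMM factor and the lowest hepatocyte marker sum in CPM, the log2 fold change was −0.36. The part of either in this shift was not tested. Without Whole Egg-4 it was −0.77, with an unadjusted p of 0.0367 and an edgeR adjusted p of 0.487.

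The repressor SHP is encoded by nr0b2a (ENSDARG00000044685), a target of FXR in mammals. It had 0.246, 2.08, 0.979 and 3.31 CPM in Whole Egg-1 to Whole Egg-4, against 0.330, 1.09, 3.04 and 4.88 CPM in Control-1 to Control-4. The number 1 fish were lowest on both diets, on 5 counts in Whole Egg-1 and 6 in Control-1, and the number 4 fish were highest. The mean was 1.65 ± 1.34 CPM in Whole Egg livers and 2.33 ± 2.05 CPM in Control livers (SD, n = 4 each). On the log2 scale the fold change was −0.50 (SE 0.85, adjusted p = 0.899 in edgeR), with a 95% interval of −2.41 to 1.42, and it was 0.12 without Control-4. The other copy, nr0b2b, had 0.489 to 2.95 CPM in Whole Egg livers and 0.1099 to 1.11 CPM in Control livers.

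**Figure D3:**
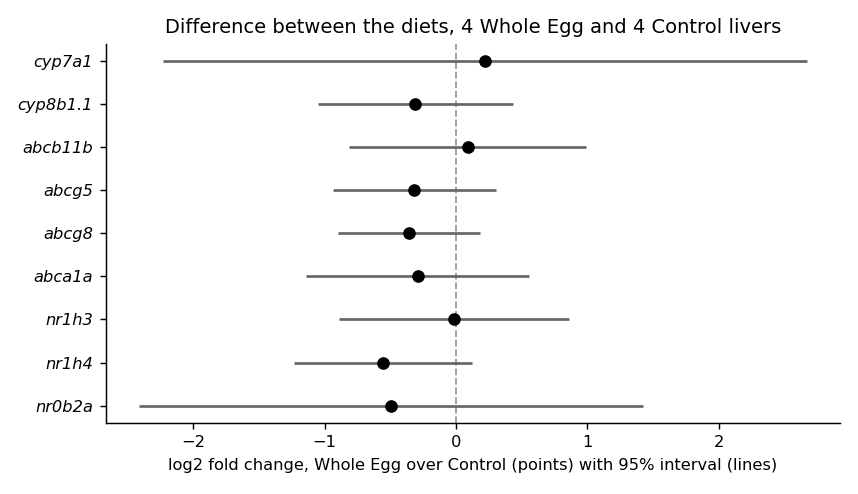
Log2 fold change of Whole Egg over Control for the 9 tested genes from edgeR, with 95% intervals derived from its test statistic (bars). Every interval crosses 0, and those of cyp7a1 and nr0b2a are the widest.

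The spread among fish of the same diet differed widely between the members. The SD of log2 CPM within a diet was 2.34 for cyp7a1, larger than in 99.3% of the genes tested, and 1.52 for nr0b2a, larger than in 95.2%. Among the 3945 genes whose mean level was within 2-fold of that of cyp7a1, the median SD was 0.399 and 98.8% had a smaller SD. For nr0b2a, 93.4% of 5179 genes of like level had a smaller SD. From the lowest to the highest fish, cyp7a1 covered 107-fold on the Whole Egg diet and 23.2-fold on the Control diet, and nr0b2a covered 13.5-fold on the Whole Egg diet and 14.8-fold on the Control diet. The transporters and receptors varied less. Their SD ran from 0.313 for abcg8 to 0.625 for nr1h3, where the median over all genes was 0.481, and 6 of the 9 members were above that median.

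**Figure D4:**
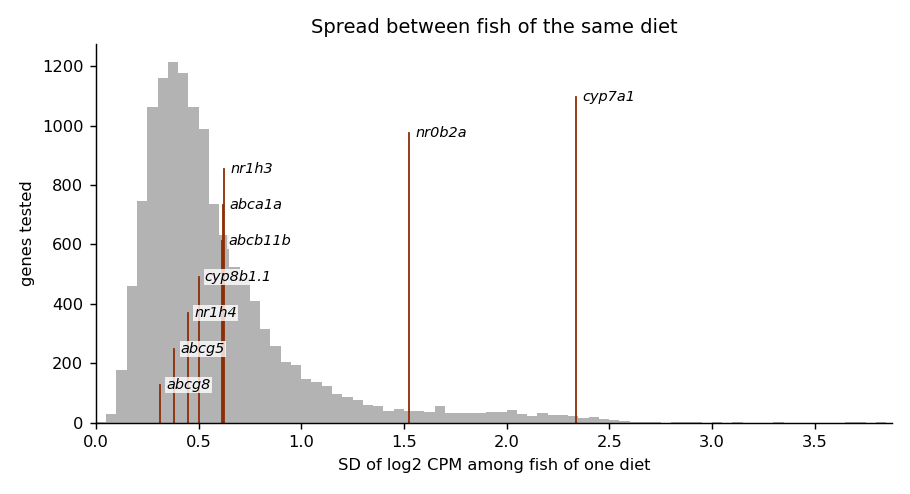
SD of log2 CPM among fish of one diet (horizontal axis) for all 13379 genes tested (grey bars, number of genes), with the 9 tested genes as lines whose heights only separate the labels. The line of cyp7a1 (2.34) lies far to the right, that of nr0b2a (1.52) is next, and the others lie between 0.313 and 0.625.

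The enzyme, pump and repressor were then compared across fish, since bile acid feedback in mammals links them. For cyp7a1 and nr0b2a, r was −0.51 (exact permutation p = 0.194, adjusted over 8 pairs 0.518) and rho was −0.50 (exact permutation p = 0.216, adjusted 0.535). Without Whole Egg-4 and Control-4, the fish farthest from the median of cyp7a1, r was 0.169, so the negative sign rested on the number 4 fish. For abcb11b and nr0b2a, r was 0.738 (exact permutation p = 0.0394, adjusted over 8 pairs 0.158) and rho was 0.714 (exact permutation p = 0.0576, adjusted 0.230), with r = 0.529 without the same fish. For nr1h4 and nr0b2a, receptor and target, r was −0.076 (exact permutation p = 0.869, adjusted 0.869) and rho was 0.286 (exact permutation p = 0.501, adjusted 0.572). Without Whole Egg-2 and Control-1, the fish farthest from the median of nr1h4, r was 0.726 for nr1h4 and nr0b2a. Leaving out Whole Egg-2 alone gave 0.101, so that fish by itself did not move the value far from 0. For nr1h4 and abcb11b, r was 0.209 (exact permutation p = 0.635, adjusted 0.726) and rho was 0.333 (exact permutation p = 0.428, adjusted 0.571), with r = 0.902 without Whole Egg-2 and Control-1. Both pairs of nr1h4 thus had a higher r in the other 6 fish than in all 8. For nr1h4 and abcb11b, leaving out Whole Egg-2 alone gave 0.257. The LXR gene nr1h3 and abca1a gave r = 0.318 (exact permutation p = 0.439, adjusted 0.586) and rho = 0.167 (exact permutation p = 0.703, adjusted 0.703), with r = 0.287 without Control-2 and Control-3, the fish farthest from the median of nr1h3. For nr1h3 and abcg5, r was 0.341 (exact permutation p = 0.408, adjusted 0.586) and rho was 0.452 (exact permutation p = 0.267, adjusted 0.535), with r = 0.649 without the same fish. None of the 8 pairs passed an adjusted p of 0.05.

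Genes with the most similar pattern to each member over the 8 fish were taken from 11703 tested genes with a mean of at least 1 CPM. For cyp7a1 these were CYP2R1 (r = 0.943), a vitamin D hydroxylase, and ADCK1 (r = 0.936). For cyp8b1.1 they were naprt (r = 0.978), which makes a precursor of NAD, and zgc:109986 (r = 0.969). For nr0b2a they were HLTF (r = 0.986) and hsd3b7 (r = 0.981), an enzyme of bile acid synthesis. The level of hsd3b7 was 16.3, 36.7, 25.7 and 58.04 CPM in Whole Egg-1 to Whole Egg-4, against 20.1, 27.9, 46.2 and 66.4 CPM in Control-1 to Control-4, which places the fish of each diet in the same order as nr0b2a. For nr1h3 they were si:dkey-58f10.7 (r = 0.992) and apof (r = 0.968), and for nr1h4 rapgef5a (r = 0.987) and ENSDARG00000117496 (r = 0.979). For the transporters they were znf219 (r = 0.963) and jag1b (r = 0.958) with abcb11b, RAB5A (r = 0.972) and AMDHD2 (r = 0.969) with abcg5, SSTR2 (r = 0.931) and PRKD3 (r = 0.927) with abcg8, and IGFALS (r = 0.977) and UBL3 (r = 0.969) with abca1a. These are the highest of many values over the same 8 libraries, which also share their depth and makeup, and they describe these fish only. Without Whole Egg-2, r was 0.885 for IGFALS and 0.861 for UBL3 and stayed above 0.9 for the other genes.

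The other genes of these pathways were read from lists. As for the members, the direction of a list can depend on the TMM factors. Of 21 tested genes of bile acid synthesis, all 21 had a fitted value below 0, with a median log2 fold change of −0.36. At an unadjusted p under 0.05, 1 passed as lower in Whole Egg livers and 0 passed as higher. Over all genes, 1.36% passed as lower and 3.90% in either direction, so 1 gene does not set the list apart. The gene that passed was hsd17b4, whose peroxisomal enzyme acts in shortening the sterol side chain. It had 33.5, 25.4, 34.4 and 38.9 CPM in Whole Egg-1 to Whole Egg-4, against 50.8, 47.4, 38.5 and 46.7 CPM in Control-1 to Control-4. In CPM, Whole Egg-4 lay just above Control-3 and the other Whole Egg fish were below every Control fish. Whole Egg-2 had 869 counts in a library of 20031071 and Control-4 had 680 in 21346815, so this order depends on the TMM factors. The log2 fold change of hsd17b4 was −0.47 (SE 0.21, unadjusted p = 0.0490 and adjusted p = 0.810 in edgeR). The count of genes below 0 changed to 19 of 21 without Whole Egg-2 and to 15 of 21 (median −0.089) without Whole Egg-2 and Control-2. Hepatocyte markers moved alongside, with 10 of 11 below 0 in all fish, 7 of 11 without Whole Egg-2 and 5 of 11 without Whole Egg-2 and Control-2. Exocrine pancreas markers had 10 of 10 below 0 in all fish (median −0.58), 10 of 10 without Whole Egg-2 and 2 of 10 (median 0.21) without Whole Egg-2 and Control-2. The part of either marker list in the values of the synthesis genes was not tested.

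In bile salt transport, 6 of 12 tested genes were below 0, with a median of −0.015, and 0 passed an unadjusted p of 0.05. There were 8 of 12 below 0 (median −0.10) without Whole Egg-2, and 5 of the 10 then tested (median −0.038) without Whole Egg-2 and Control-2. The ileal bile acid binding protein fabp6 had 40.6 CPM in Control-2 and at most 0.0603 CPM in the other fish. The ileal bile acid carrier slc10a2 had 3.90 CPM in Control-2 and at most 0.146 CPM in the others. Both were high only in the library with the most intestine marker counts, of whose marker list they are members. In sterol export and handling, 12 of 17 were below 0, with a median of −0.24, and 0 passed. That count was 8 of 17 without Whole Egg-2 and 5 of 17 without Whole Egg-2 and Control-2, so its direction depended on those libraries.

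In sterol and bile acid sensing, 16 of 24 tested genes were below 0, with a median of −0.13, and 1 passed an unadjusted p of 0.05, where 3.90% of all genes passed in either direction, so the list did not stand apart by this count. The gene was rxraa, which encodes a retinoid X receptor, the partner with which LXR and FXR bind DNA. Its levels were 4.13, 5.33, 3.47 and 6.45 CPM in Whole Egg-1 to Whole Egg-4, against 9.12, 7.52, 6.81 and 6.94 CPM in Control-1 to Control-4. In CPM, all 4 Whole Egg fish were below all 4 Control fish. The diets did not overlap in 1 of the 24 listed genes and in 2.14% of all genes in either direction. Whole Egg-2 had 182 counts in a library of 20031071 and Control-4 had 101 in 21346815, so this separation depends on the TMM factors. The mean was 4.84 ± 1.32 CPM in Whole Egg livers and 7.598 ± 1.06 CPM in Control livers (SD, n = 4 each), a log2 fold change of −0.65 (SE 0.25, adjusted p = 0.810 in edgeR), so rxraa was not called. Without Whole Egg-2, 8 of the 24 were below 0, and without Whole Egg-2 and Control-2, 11 of 24.

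**Figure D5:**
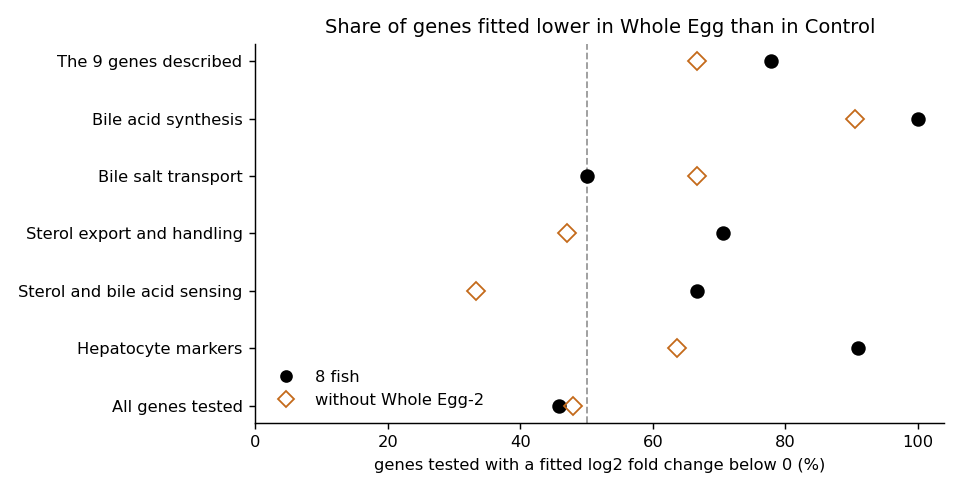
Percent of tested genes with a fitted log2 fold change of Whole Egg over Control below 0 (horizontal axis) in each list, in all 8 fish (filled circles) and without Whole Egg-2 (open diamonds); the dashed line marks 50%. Bile acid synthesis lies at 100% and then 90.5%, and sterol and bile acid sensing at 66.7% and then 33.3%. All genes tested lie at 45.8% and then 48.0%. The pathway lists leave out the members, so bile acid synthesis does not count cyp7a1 (log2 fold change 0.22 in all fish) or cyp8b1.1 (−0.31).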

How the data were processed

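Whole livers of 8 females gave strand-specific, rRNA-depleted, single-end libraries. Trimming by the authors used Trimmomatic 0.36 and alignment to GRCz11 used STAR 2.5.2b, and they deposited raw counts per Ensembl gene without normalization; their own comparison used DESeq2 1.22.2. The column for the strand holding 97.9% of the counts was used, after removing the rows that name no gene (44.6% to 51.9% of reads, 33.9% to 37.9% mapping to several places). Libraries held 16916307 to 35871236 counts, and none of 28 pairs of libraries were alike within sampling noise.

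In R 4.3.3, Whole Egg was compared with Control by edgeR 4.0.16's quasi-likelihood test, with TMM scaling, filterByExpr (minimum count 10) and Benjamini-Hochberg adjustment over 13379 genes. Ratios and correlations were tested by exact permutation. Log2 CPM had a prior count of 2. The tests were checked on simulated data. Symbols came from tables covering 29230 of 32520 identifiers.

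The members, lists and named-gene rule were chosen with earlier results of these data known. Named were the members, list genes at an unadjusted p under 0.05 or without overlap, and the 2 genes most correlated with each member. Context genes such as paralogs were named after their values were seen. Of the listed symbols, 24 of 29, 20 of 22, 20 of 22 and 26 of 28 were matched for synthesis, transport, export and sensing. Alternatives were DESeq2 1.42.0, RLE size factors, upper quartile scaling, other filters on low counts, counts of both strands, the fish number as a block, and leaving out fish. No sequences are printed, and the ratio of abcb11b to slc10a1 was planned but could not be computed at 0 counts, so p-values of ratios were adjusted over 2.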

Additional observations from a re-analysis of the deposited data

How the results depend on the processing

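No gene was called at an adjusted p under 0.1 in any of the 17 alternative settings, and the lowest edgeR adjusted p of a member was 0.487. DESeq2 was run only once, on all fish, and the other alternatives were edgeR fits. What DESeq2 gives with fish left out or with another filter was not tested. Genes at an unadjusted p under 0.05 numbered 522 of 13379 with all fish and 240 to 1442 otherwise, of differing numbers tested. There were 1227 of 25466 with DESeq2, 1442 of 25466 with no filter on low counts and 240 of 7460 with 30 counts in every fish. Leaving out fish gave 281 of 13267 without Whole Egg-2 and Control-2, and 1005 of 13701 without Whole Egg-1 and Control-4. It gave 1374 of 13814 without Whole Egg-1, 1343 of 13885 without Whole Egg-4 and 244 of 13920 without Control-4. Without Control-3 there were 311 of 13828, and without Control-2 there were 339 of 13765. Of 151 alternatives of member fold changes, 134 kept direction and 17 turned it. The turned values were −1.13 for cyp7a1, 0.13 for nr1h3 and 0.47 for nr0b2a without Whole Egg-1 and Control-4, 0.041 for nr1h3 with 30 counts in every fish, −0.16 for cyp7a1 and 0.086 for nr1h3 with the fish number as a replicate block, and some of those leaving out 1 fish. Over all omissions of 1 fish, turned or not, the values ran from −0.76 to 1.07 for cyp7a1, −0.32 to 0.34 for abcb11b, −0.25 to 0.30 for nr1h3 and −1.07 to 0.12 for nr0b2a.

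Members at an unadjusted p under 0.05 numbered 1 of 9 without Whole Egg-1 and Control-4 (cyp8b1.1), where 1005 of 13701 genes passed. Leaving out 1 fish gave 0 to 1 members. The 1 was cyp8b1.1 without Whole Egg-1 (1374 of 13814 genes passed) and nr1h4 without Whole Egg-4 (1343 of 13885). With 9 members tested, a count of 1 does not set them apart from all genes. The cyp8b1.1 to cyp7a1 difference was 0.25 without Whole Egg-2 and Control-2, 1.15 without Whole Egg-1 and Control-4, and −1.45 to 0.55 leaving out 1 fish, and that of abcg5 to abcg8 ran from −0.053 to 0.11 leaving out 1 fish. The abcg5 and abcg8 correlation passed an adjusted exact permutation p of 0.05 on deviations from the diet means (r = 0.878, adjusted p = 0.0329) and with upper quartile scaling (r = 0.917, adjusted p = 0.0488). That of nr1h4 and nr0b2a was 0.101 without Whole Egg-2. The cause of these shifts was not tested.

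Same-numbered fish deviated together with r = 0.198, 0.352, 0.0787 and 0.451 for numbers 1 to 4. Whole Egg-1, Whole Egg-2 and Whole Egg-4 correlated best with the Control fish of their own number and Whole Egg-3 with Control-4. The numbers were not taken to pair the fish because number 3 lay under 0.1. With the replicate block, 754 of 13379 genes and 1 of 9 members passed an unadjusted p of 0.05. That member was nr1h4 (log2 fold change −0.61, edgeR adjusted p = 0.740). In CPM, nr1h4 was lower in the Whole Egg fish of each of the 4 numbers. For number 4 this depends on the TMM factors, with 296 counts of 16916307 in Whole Egg-4 and 276 of 21346815 in Control-4. With 4 fish per diet, the intervals of cyp7a1 and nr0b2a leave differences of several fold undetectable, and the lowest fish of each diet had 4 and 13 counts of cyp7a1 and 5 and 6 counts of nr0b2a.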

Other observations

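The genes in this paragraph were chosen after their values were seen. The gene soat2, whose mammalian enzyme esterifies cholesterol in liver and intestine, had 11.2, 32.5, 86.1 and 188.7 CPM in Whole Egg-1 to Whole Egg-4, against 3.57, 4.35, 84.1 and 151 CPM in Control-1 to Control-4. The number 1 and 2 fish were low and the number 3 and 4 fish high on both diets, and the log2 fold change of soat2 was 0.39 (SE 1.19, adjusted p = 0.940 in edgeR). The gene fgf19, which in mammals encodes a hormone induced by bile acids, had 1.38, 0.205, 1.59 and 4.58 CPM in Whole Egg-1 to Whole Egg-4, against 36.1, 28.1, 0.443 and 0.481 CPM in Control-1 to Control-4. Control-1 and Control-2 were high and Control-3 and Control-4 lay within the range of the Whole Egg fish, and the log2 fold change of fgf19 was −3.10 (SE 1.401, adjusted p = 0.810 in edgeR). The canalicular transporter abcc2, which exports conjugated anions, had 134, 82.6, 145 and 131 CPM in Whole Egg-1 to Whole Egg-4, against 171, 145.3, 149.9 and 187 CPM in Control-1 to Control-4. Its log2 fold change was −0.41 (SE 0.24, adjusted p = 0.810 in edgeR).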
